A study of Rattus norvegicus with 12 samples.

Results

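The genes described here build ribosomes: they transcribe ribosomal DNA with RNA polymerase I, modify and cleave the precursor RNA, and assemble the 40S and 60S subunits. The 38 genes were taken by symbol from a list of known factors, out of the 32883 genes in the deposited tables. The list was chosen with earlier results of these data known. Each symbol matched exactly 1 gene. They fall into 6 roles: RNA polymerase I transcription (7 genes), box C/D snoRNPs (3), box H/ACA snoRNPs (3), abundant nucleolar proteins (5), the small subunit processome and 40S maturation (12), and 60S assembly (8).

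Total RNA, depleted of ribosomal RNA, was sequenced from heart muscle cells of Sprague-Dawley rats aged 1 to 3 days. The cells were plated at 40000 per cm2 in medium with 7% serum. All groups received 10 µM AraC (cytosine arabinoside, which blocks DNA synthesis) during the early culture, followed by serum-free medium, with AraC removed before treatment. Treatment lasted 24 h and had 6 arms of 2 libraries each, 12 libraries in all. The vehicle group received acetic acid and DMSO. The ET-1 group received 100 nM endothelin-1 (a peptide agonist of endothelin receptors) and DMSO. The PE group received 10 µM phenylephrine (an agonist of alpha-1 adrenergic receptors) and DMSO. The vehicle+JQ1, ET-1+JQ1 and PE+JQ1 groups received 1 µM JQ1, which displaces BET bromodomain proteins from acetylated chromatin, in place of DMSO. The labels do not say that replicates 1 and 2 were separate cultures, so p-values measure the spread between these libraries, which may be technical.

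A growing cell spends much of its transcription on ribosomes. RNA polymerase I copies ribosomal DNA in the nucleolus, snoRNA-guided enzymes methylate and pseudouridylate the transcript, and separate sets of assembly factors turn it into the subunits. In heart muscle cells, hypertrophic agonists such as endothelin and adrenergic agonists are known to raise RNA polymerase I activity, and many of the protein genes in this pathway are known targets of Myc.

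The libraries covered 2.341 to 2.965 Gb of transcript sequence, and 12172 to 13543 genes reached an FPKM (fragments per kilobase of transcript, scaled to library total) of at least 1. Levels are gene FPKM rescaled between libraries by median of ratios, and differences are on the log2(rescaled FPKM + 0.5) scale, which understates changes of low genes. The summed level of 7 cardiomyocyte markers was 10386 to 22447. That of 8 fibroblast markers was 1334 and 324 in vehicle replicates 1 and 2. It was lower with JQ1, at 506 to 660 in replicate 1 and 109 to 147 in replicate 2. Endothelial markers summed to 0.29 to 5.38, with Cdh5 and Emcn at 0 in some replicate 2 libraries, and macrophage markers to 2.82 to 18.8, with Adgre1 at 0 in the replicate 2 JQ1 libraries. The 8 markers of dividing cells summed to 205 to 209 in vehicle, 177 to 200 in ET-1 and 224 to 236 in PE. With JQ1 they summed to 144 to 158, 74.7 to 81.2 and 102 to 130. The 5 smooth muscle and mural markers summed to 149 to 159 in vehicle and 239 to 282 in the agonist groups, and to 68.0 to 122 with JQ1. The higher sum with the agonists lay in Cnn1, at 29.6 and 47.3 in vehicle and 97.3 to 164 with an agonist, and Acta2. The other 3 markers had negative differences with each agonist (list median -0.04). Fewer cells of a type and less RNA per cell cannot be told apart in bulk RNA.

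All 38 genes passed the filter for testing (a rescaled FPKM of 1 or more in 2 libraries or more), and 37 were at 1 or more in every library. The exception was Gar1, a core protein of box H/ACA snoRNPs, at 0.451 to 2.15. Per transcript length, the most abundant was Npm1 (nucleophosmin, a nucleolar chaperone), at 134 to 267. Next came Ncl (nucleolin) at 57.7 to 94.0 and Polr1c at 38.9 to 77.8. Among the genes with low levels was Fbl (fibrillarin, the methyltransferase of box C/D snoRNPs) at 1.94 to 3.93. The steadiest over the 12 libraries was Rrn3, whose highest level was 1.23 times its lowest, and the most variable was Gar1 at 4.78 times. 14 of the 38 had their highest level in ET-1+JQ1 replicate 2 and 11 in PE+JQ1 replicate 2, while 10 and 8 had their lowest in vehicle replicates 1 and 2, and 9 and 6 in vehicle+JQ1 replicates 1 and 2.

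Promoter sequence was read from RefSeq (build GRCr8) for 35 of the 38 genes. Bop1, Rrs1 and Wdr43 were not matched. Motifs were searched on both strands in the 250 bases before each start. The E-box CACGTG, the motif of Myc and Max, was present in 5 of 35 (14.3%), against 5.6% of all 33365 promoters and 8.0% of those of tested genes. The ETS-type motif CCGGAAG was present in 14 of 35 (40.0%), against 7.3% of all promoters and 15.6% of those of tested genes. The GC box GGGCGG was in 65.7%, against 30.5% and 59.4%. CCAAT was in 17.1%, against 34.0% and 35.5%, and the NRF1-type GCGCATGC in 11.4%, against 2.2% and 4.9%. No motif contains another, and a match describes letters only.

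The 5 windows with CACGTG are shown because Myc is the regulator most often named for these genes. They are ordered from the highest to the lowest JQ1 difference without agonist, and capitals mark the motif. Gnl3 (nucleostemin, a nucleolar GTPase) lies at chr16:6219783-6219837 on the minus strand. Pes1 (60S assembly) lies at chr14:83074266-83074331 on the plus strand, and Dkc1 (dyskerin, the pseudouridine synthase) at chrX:157751437-157751502 on the plus strand. In rn6, Dkc1 is annotated on the minus strand. Utp20 (small subunit processome) lies at chr7:25102941-25103006 on the minus strand, and Ltv1 (a 40S assembly and export factor) at chr1:9398583-9398648 on the minus strand.
Gnl3: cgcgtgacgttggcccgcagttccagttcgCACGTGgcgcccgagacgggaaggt
Pes1: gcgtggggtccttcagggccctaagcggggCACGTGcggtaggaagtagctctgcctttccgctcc
Dkc1: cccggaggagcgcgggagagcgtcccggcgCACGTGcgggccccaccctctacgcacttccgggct
Utp20: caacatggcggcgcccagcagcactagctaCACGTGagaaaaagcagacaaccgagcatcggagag
Ltv1: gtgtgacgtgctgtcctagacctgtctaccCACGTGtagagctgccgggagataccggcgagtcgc
The JQ1 differences without agonist of these 5 genes ran from 0.39 for Gnl3 through 0.13, -0.26 and -0.58 to -0.93 for Ltv1.

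Windows with the ETS-type motif are shown for Polr1c and Ddx21, picked after their values were seen because their levels moved differently. Polr1c lies at chr9:22233198-22233264 on the plus strand and Ddx21 at chr20:31097269-31097335 on the minus strand of GRCr8, and capitals mark CCGGAAG.
Polr1c: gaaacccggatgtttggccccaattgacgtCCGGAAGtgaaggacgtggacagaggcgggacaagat
Ddx21: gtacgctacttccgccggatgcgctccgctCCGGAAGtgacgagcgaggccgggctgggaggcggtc
Polr1c was higher with agonist and, in the agonist states, lower with JQ1. Ddx21 was higher with JQ1. Its agonist differences were also positive, 0.19 with ET-1 and 0.25 with PE, and not called in either fit. Both windows hold 1 match, 90 and 67 bases before the start.

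**Figure D1:**
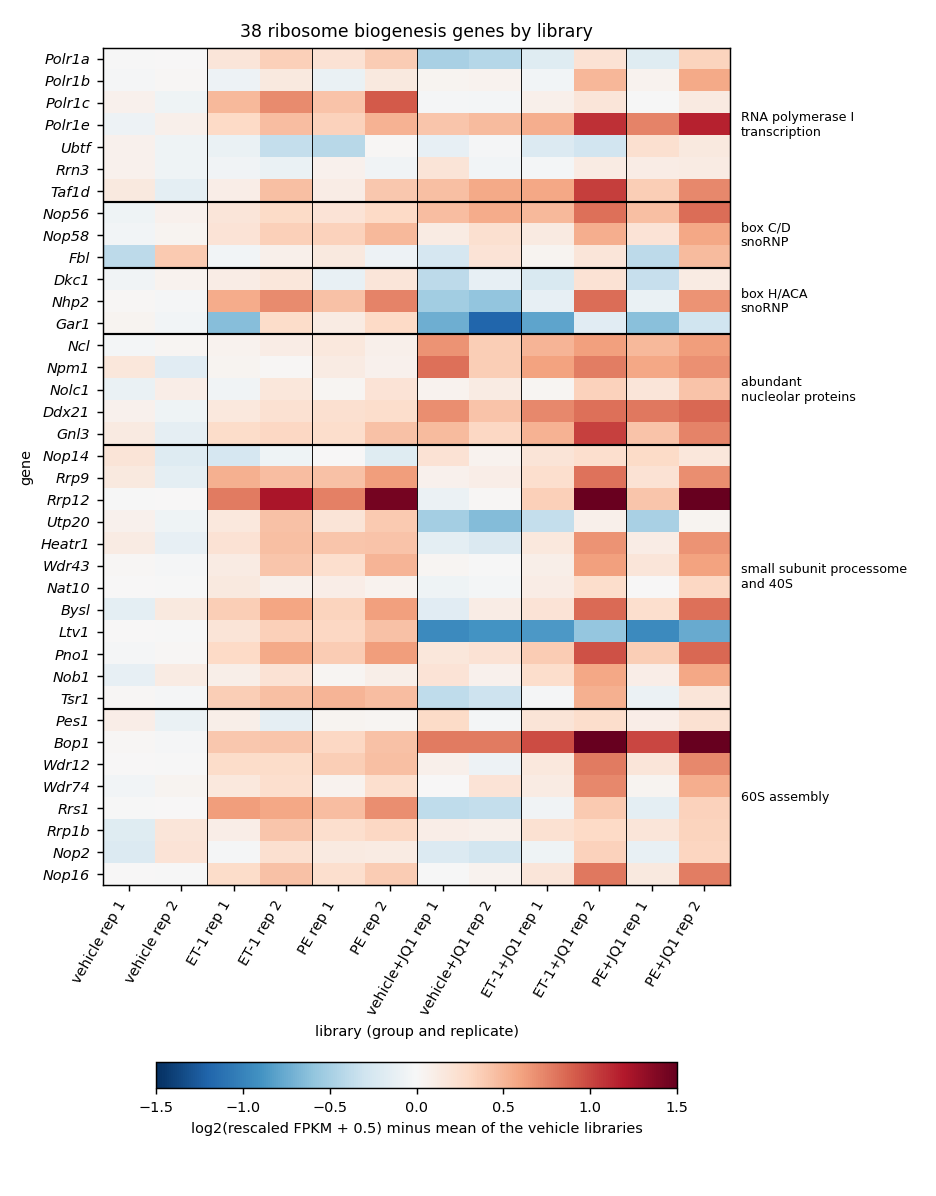
Heat map of the 38 genes (rows, grouped by role) in the 12 libraries (columns), as log2(rescaled FPKM + 0.5) minus the mean of the vehicle libraries; red is higher and blue lower. The agonist columns are mostly pale red, Ltv1 is blue in all 6 JQ1 libraries, and Bop1 is red in all 6.

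The agonists were compared with vehicle to ask whether the ribosome-building genes respond to a hypertrophic stimulus. With ET-1, 33 of the 38 genes had a positive difference and the median was 0.27, beside 47.6% of all genes positive and a median of -0.02. No member was called (adjusted p under 0.05 over all 13793 tested genes, limma), where 2.87% of all genes were called in either direction. At an unadjusted p under 0.05 there were 5 members (5 of 38, beside 20.3% of all genes). Libraries with the same replicate number deviated together across groups, so a fit with replicate number as a block was also made. It called 5 members higher (Bysl, Ltv1, Polr1c, Rrp12 and Rrs1), which is 5 of 38 beside 8.89% of all genes. In 25 of 38 (65.8%) both ET-1 libraries lay above both vehicle libraries, which held for 25.7% of all genes. Without ET-1 replicate 2 the median was 0.16, and with the block and without vehicle replicate 2 it was 0.15.

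With PE, 36 of the 38 were positive and the median was 0.29, beside 48.7% of all genes and a median of -0.01. Only Polr1c was called, 1 of 38 where 2.89% of all genes were called higher. At an unadjusted limma p under 0.05 there were 9 of 38 members, beside 23.1% of all genes. The block called 9 higher, beside 11.8% of all genes: Bysl, Ltv1, Nop58, Pno1, Polr1c, Polr1e, Rrp12, Rrs1 and Tsr1. Both PE libraries lay above both vehicle libraries in 26 of 38 (68.4%), beside 27.0% of all genes. With the block the median was 0.44 without vehicle replicate 1 and 0.19 without vehicle replicate 2. The ET-1 and PE comparisons share the vehicle libraries, so their values are not independent. Without rescaling of FPKM the positive counts were 28 with ET-1 and 26 with PE, the medians were 0.18 and 0.17, and Polr1c was not called with PE (0.54). That choice moved the median of all genes to -0.11 and -0.13. Fibroblast markers were lower in 8 of 8 with ET-1 (median -0.54) and in 7 of 8 with PE (-0.38), none of them called, and their part in these differences was not tested.

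Among the 7 genes of RNA polymerase I transcription, Polr1c moved most with the agonists. It encodes a subunit shared by RNA polymerases I and III and lies on chromosome 9 at 17120759 to 17124871, plus strand, in rn6. Its level was 42.9 and 38.9 in vehicle (replicates 1 and 2), 57.4 and 67.2 in ET-1, and 54.9 and 77.8 in PE. All 4 agonist libraries stood above both vehicle libraries. The difference was 0.60 (SE 0.16, limma adjusted p = 0.0875, 0.0218 with the block) for ET-1 and 0.67 (SE 0.16, adjusted p = 0.0478, 0.0118 with the block) for PE. The PE call was lost without PE replicate 2, where the difference was 0.42, and without either vehicle library, where it was 0.74 or 0.60.

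Polr1a, the catalytic subunit, was at 6.31 and 6.40 in vehicle, 7.25 and 8.30 in ET-1, and 7.48 and 8.45 in PE. The agonist libraries were higher without overlap, but the differences of 0.27 and 0.30 were not called in either fit. Polr1b, the second-largest subunit, was at 4.45 and 4.55 in vehicle, 4.25 and 5.03 in ET-1, and 4.16 and 5.05 in PE, so its groups overlapped. Polr1e, a subunit particular to RNA polymerase I, was at 6.93 and 7.72, then 9.10 and 10.3, then 9.46 and 10.7. Its groups did not overlap, and the PE difference of 0.44 (SE 0.20) had an adjusted p of 0.228, and of 0.0331 with the block.

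For the factors that bring the polymerase to its promoter, as for Polr1b, the agonist libraries did not all lie above the vehicle libraries. Ubtf, which binds along ribosomal DNA, was at 21.6 and 19.6 in vehicle, 19.2 and 15.9 in ET-1, and 15.3 and 20.9 in PE. Its differences were negative, -0.23 and -0.20, and not called. Rrn3, the factor that makes the polymerase competent to initiate, was at 20.7 and 19.1, 19.2 and 18.6, and 20.7 and 19.1, with differences of -0.07 and 0.00. Taf1d, a subunit of the promoter selectivity factor SL1, was at 37.7 and 30.8, 36.7 and 46.7, and 36.8 and 45.3. Its groups overlapped and neither difference (0.27 and 0.26) was called.

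**Figure D2:**
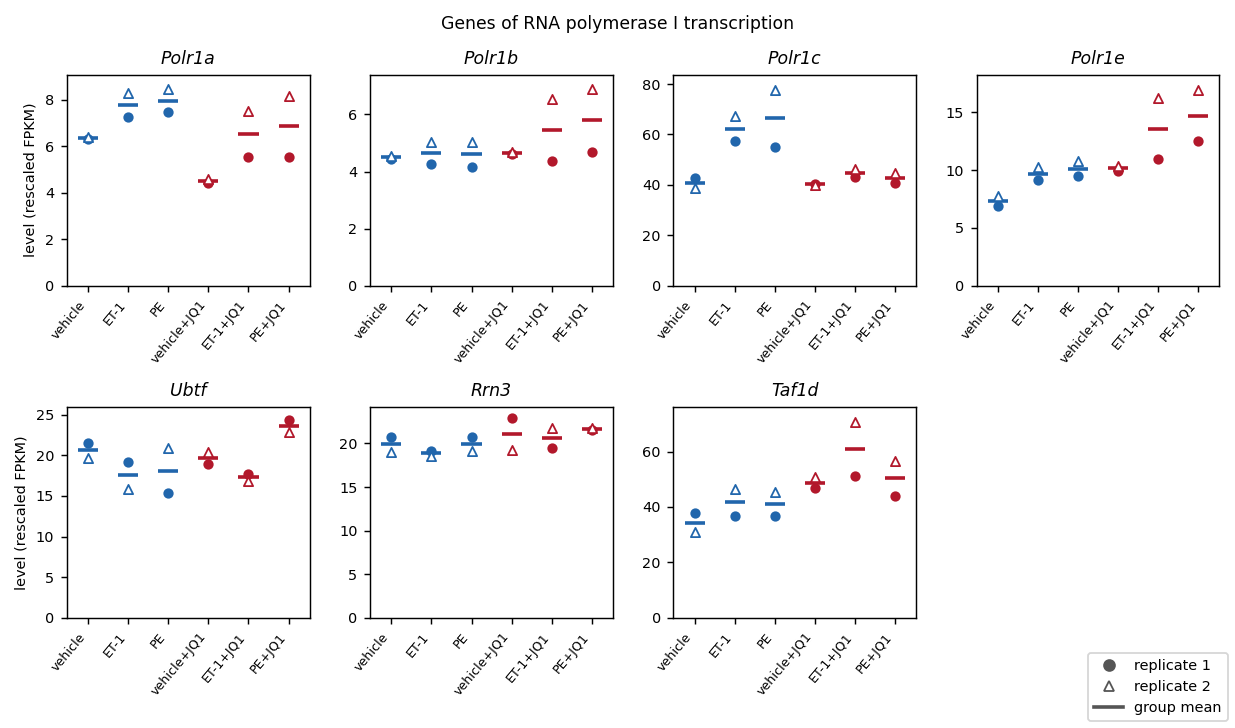
Level (rescaled FPKM, vertical axis from 0) of the 7 genes of RNA polymerase I transcription in the 6 groups; circles are replicate 1, triangles replicate 2, bars group means, blue DMSO and red JQ1. Polr1c stands at 54.9 to 77.8 in the agonist groups with DMSO and at 40.1 to 46.2 in every group with JQ1.

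Several assembly factors rose with the agonists in the blocked fit, although none of these blocked calls, 5 with ET-1 and 9 with PE, held with every library left out in turn. Rrp12, which acts in nuclear export of pre-ribosomal particles, had the largest difference: 6.28 and 6.33 in vehicle, 11.1 and 15.5 in ET-1, and 10.96 and 17.9 in PE. All agonist libraries were higher, and replicate 2 stood above replicate 1 in both. The differences were 1.00 and 1.10 (SE 0.45), with adjusted p = 0.258 and 0.190, and 0.0426 and 0.0266 with the block. Rrs1, which helps place the 5S particle in the 60S subunit, was at 11.8 and 11.9, then 18.6 and 17.9, then 16.5 and 19.5. Its groups were apart, with differences of 0.60 and 0.58 (SE 0.18) and adjusted p = 0.121 and 0.108, and 0.0261 and 0.0244 with the block.

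Bysl, an early 40S maturation factor, was at 12.01 and 14.8 in vehicle, 17.4 and 20.3 in ET-1, and 17.02 and 20.6 in PE. The differences of 0.48 and 0.47 were called with the block only (adjusted p = 0.0251 and 0.0211). Ltv1 was at 19.1 and 19.0 in vehicle, 21.95 and 24.5 in ET-1, and 23.8 and 26.1 in PE. Its replicates lay close together, and its differences of 0.28 and 0.38 were also called with the block only (0.0411 and 0.0122). Tsr1, a GTPase-like factor of late 40S assembly, was at 17.1 and 16.7 in vehicle, 21.95 and 23.2 in ET-1, and 24.3 and 23.5 in PE. It had the third smallest adjusted p of the members with ET-1 (0.222, difference 0.41), and with PE its difference of 0.49 was called with the block (0.0384). Pno1 (40S maturation) and Nop58 (box C/D core) had PE differences of 0.51 and 0.41, called with the block at adjusted p = 0.0316 and 0.0185.

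PE and ET-1 were compared directly to ask whether the agonists differ. The median of the 38 was 0.03 and the range -0.11 to 0.39. No member was called, with 0.00725% of all genes (1 gene) called without the block and 0.00725% with it, and no member had an unadjusted p under 0.05, beside 1.49% of all genes. The members with the smallest p were Gar1 (0.39, SE 0.33), Ltv1 (0.10, SE 0.11) and Nop58 (0.14, SE 0.16), each at adjusted p = 1.0.

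JQ1 was compared with DMSO in each agonist state to ask which of these genes depend on BET proteins. In contrast to the agonists, the medians were near those of all genes: 0.03 in vehicle, 0.09 in ET-1 and 0.07 in PE, beside 0.01, 0.03 and 0.01. Genes moved in opposite directions. In vehicle, 5 members were called higher (Bop1, Npm1, Ddx21, Ncl and Nop56), beside 15.3% of all genes, and Ltv1 was called lower, beside 16.7%. In ET-1, 4 were called higher (Bop1, Npm1, Ddx21 and Ncl; background 17.9%) and 2 lower (Ltv1 and Polr1c; 19.6%). In PE the same 4 were called higher (17.5%) and the same 2 lower (19.0%). Shares of 4 or 5 in 38 higher and 1 or 2 in 38 lower are not above the backgrounds. At an unadjusted limma p under 0.05 there were 10, 11 and 12 of 38 members in vehicle, ET-1 and PE. The shares of all genes were 43.5%, 46.7% and 46.6%. The 3 JQ1 comparisons use separate libraries.

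The block called more in each state. In vehicle it called 7 higher, beside 24.9% of all genes, adding Polr1e and Taf1d, and 4 lower, beside 27.9%, adding Gar1, Polr1a and Utp20. In ET-1 it called 9 higher (27.1%), adding Nop56, Polr1e, Taf1d, Gnl3 and Nop14, and 3 lower (29.8%), adding Rrs1. In PE it called 7 higher (26.7%), adding Nop56, Polr1e and Nolc1, and 5 lower (29.7%), adding Rrs1, Tsr1 and Utp20. Of the JQ1 calls that the block added, only that of Nop56 in ET-1 held with every library left out in turn. The losses of JQ1 calls given below for named libraries are those of the fit without the block. In the blocked fit, the calls of Bop1 in ET-1 and PE and of Ncl in vehicle and ET-1 held. So did those of Nop56 in vehicle and Polr1c in PE. Without rescaling and without the block, calls were 3 higher and 6 lower in vehicle, 3 and 3 in ET-1, and 4 and 5 in PE, and the median in vehicle turned to -0.06. Over all genes that choice lowered the share of calls that were higher from 47.9%, 47.8% and 48.0% to 31.3%, 31.9% and 38.7%. Quantile normalization raised it to 55.5%, 55.5% and 55.2%, with members at 4 higher and 1 lower, 6 and 2, and 3 and 3.

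Over all 6 JQ1 and all 6 DMSO libraries, 5 members were higher without overlap (Bop1, Ddx21, Ncl, Nop56 and Npm1), 13.2% beside 17.9% of all genes. Ltv1 was the only member lower without overlap, 2.63% beside 18.5%. Dividing-cell markers were lower with JQ1 in 8 of 8 in each state, with 3, 8 and 8 called, and fibroblast markers in 8 of 8 with none called. Their part in the members' differences was not tested.

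Ltv1 fell in each state. It lies on chromosome 1 at 7323040 to 7335936, minus strand, in rn6. From 19.1 and 19.0 in vehicle, 21.95 and 24.5 in ET-1, and 23.8 and 26.1 in PE, it stood with JQ1 at 9.59 and 10.0, 10.3 and 12.5, and 9.62 and 11.1. The lowest DMSO library (19.0) was above the highest JQ1 library (12.5). The differences were -0.93, -1.0 and -1.23 (SE 0.11), with limma adjusted p = 0.000979, 0.000486 and 0.000236. The largest adjusted p with any single library left out was 0.00965.

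Polr1c was lower with JQ1 than with DMSO where an agonist was present. These differences use the same ET-1 and PE libraries as its agonist differences, so the 2 sets of values are not independent. With JQ1 it was at 40.5 and 40.1 in vehicle, 43.1 and 46.2 in ET-1, and 40.7 and 44.8 in PE, close to its vehicle level of 42.9 and 38.9. Its JQ1 differences were -0.02 (SE 0.16, adjusted p = 0.936) in vehicle, -0.47 (adjusted p = 0.0475) in ET-1 and -0.61 (adjusted p = 0.018) in PE. The difference between these effects was itself tested and not called: -0.45 for ET-1 against vehicle (SE 0.22, unadjusted p = 0.0787, adjusted p = 1.0) and -0.59 for PE against vehicle (SE 0.22, unadjusted p = 0.0298, adjusted p = 0.928). With the block the adjusted p-values were 0.466 and 0.276. The ET-1 call was lost with each of the 4 compared libraries left out, and the values then ran from -0.36 without ET-1 replicate 2 to -0.58 without ET-1 replicate 1. The PE call was lost without PE replicate 2 (-0.36) or PE+JQ1 replicate 1 (-0.54).

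Polr1d, its partner in the polymerase, was higher with JQ1. This gene, from the list of other RNA polymerase I genes, was at 45.4 and 38.7 in vehicle, 48.4 and 40.2 in ET-1, and 43.4 and 43.6 in PE. With JQ1 it was at 89.7 and 82.4, 87.0 and 102, and 79.9 and 86.9. Its JQ1 libraries stood far above its DMSO libraries, with differences of 1.03, 1.09 and 0.93 (SE 0.13) and adjusted p = 0.000973, 0.000522 and 0.0011.

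The other 6 members of RNA polymerase I transcription were not called with JQ1 without the block. Polr1a was at 4.40 and 4.58 in vehicle+JQ1, 5.55 and 7.49 in ET-1+JQ1, and 5.54 and 8.15 in PE+JQ1. It was lower than its DMSO libraries without overlap in the vehicle state, by -0.46 (adjusted p = 0.0958, 0.0161 with the block). Polr1b was at 4.63 and 4.70, 4.37 and 6.55, and 4.69 and 6.91, with differences of 0.05, 0.19 and 0.29. Polr1e was at 9.93 and 10.4, 10.9 and 16.2, and 12.5 and 16.9. It was above its matched DMSO libraries in each state, with differences of 0.45, 0.44 and 0.51 (SE 0.20), and adjusted p = 0.116, 0.113 and 0.0748, or 0.014, 0.0137 and 0.00739 with the block.

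Ubtf was at 18.9 and 20.4, 17.7 and 16.8, and 24.3 and 22.9 with JQ1, the last pair being above its PE libraries, with a difference of 0.39 (adjusted p = 0.072). Rrn3 was at 22.9 and 19.3, 19.5 and 21.7, and 21.6 and 21.7, and its JQ1 differences were 0.08, 0.12 and 0.12 (SE 0.10). Taf1d was at 46.7 and 50.8, 51.3 and 70.6, and 44.1 and 56.7. Its differences of 0.51 and 0.54 in vehicle and ET-1 were called with the block (adjusted p = 0.0288 and 0.0218), and that of 0.29 in PE was not. Taf1d holds 9 annotated small RNA genes within its span, and their reads cannot be told apart from its own in these tables.

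Ddx21, Npm1, Ncl and Bop1 were called higher with JQ1 in each state. Nop56 was also higher in each state, but without the block it was called in vehicle only. Ddx21, a nucleolar RNA helicase on chromosome 20 at 32213148 to 32232632, minus strand, in rn6, was at 20.3 and 18.6 in vehicle, 21.7 and 22.8 in ET-1, and 23.1 and 23.4 in PE. With JQ1 it was at 31.8 and 26.2, 32.3 and 34.7, and 34.0 and 35.5. Every JQ1 library was above every DMSO library. The differences were 0.56, 0.58 and 0.57 (SE 0.10), with adjusted p = 0.00432, 0.00299 and 0.00329. They stayed called with each single library left out, the largest adjusted p being 0.0335.

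Npm1 was at 170 and 134 in vehicle, 154 and 153 in ET-1, and 165 and 158 in PE, and with JQ1 at 267 and 195, 229 and 257, and 225 and 242. The differences were 0.60, 0.66 and 0.53 (SE 0.17), with adjusted p = 0.0271, 0.0162 and 0.0372. The vehicle call was lost without vehicle replicate 2 (0.43) or vehicle+JQ1 replicate 1 (0.37), the ET-1 call without either ET-1 library (0.66 and 0.65) or ET-1+JQ1 replicate 2 (0.57), and the PE call with each of its 4 libraries left out (0.48 to 0.59). The rise lay in the longer of its transcripts (1279 nt, 11 exons), whose mean was 81.8 ± 15.0 (SD, n = 2) in vehicle and 154.2 ± 48.5 in vehicle+JQ1. It was 78.2 ± 0.26 in ET-1 against 170 ± 1.55 with JQ1, and 81.4 ± 2.84 in PE against 154 ± 4.66. The shorter transcript (1164 nt, 10 exons) had means of 69.9 to 79.7 without JQ1 and 72.7 to 80.2 with it. Npm1 has near-identical processed copies in mammalian genomes, so its assignment is uncertain.

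Ncl was at 57.7 and 59.9 in vehicle, 60.9 and 63.7 in ET-1, and 65.8 and 61.8 in PE, and with JQ1 at 94.0 and 76.1, 83.7 and 90.6, and 82.8 and 91.0. Its groups were apart in each state, with differences of 0.52, 0.48 and 0.44 (SE 0.11) and adjusted p = 0.00929, 0.0109 and 0.0156. Nop56, a box C/D core protein, was at 28.3 and 31.2, 33.8 and 36.3, and 34.4 and 36.8, and with JQ1 at 41.1 and 43.8, 41.7 and 53.2, and 40.7 and 53.3. Its difference of 0.51 in vehicle was called (adjusted p = 0.0352), and those of 0.42 and 0.38 in ET-1 and PE were called with the block (adjusted p = 0.00531 and 0.00828) and, on smaller values of 0.32 and 0.33, without rescaling (adjusted p = 0.0422 and 0.0365). Without rescaling, the calls of Npm1 (0.50, 0.55 and 0.48 in vehicle, ET-1 and PE) and of Ncl (0.43, 0.38 and 0.39) were lost in every state. Quantile normalization ended the Npm1 calls in vehicle (0.47, adjusted p = 0.0916) and PE (0.47, adjusted p = 0.0846). The Ncl calls were also lost without vehicle replicate 1 (0.49) or vehicle+JQ1 replicate 1 (0.37), without ET-1 replicate 1 (0.45) or ET-1+JQ1 replicate 2 (0.42), and without PE replicate 2 (0.40) or PE+JQ1 replicate 2 (0.38). The Nop56 call was lost with each of the 4 vehicle-state libraries left out (0.44 to 0.58).

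Bop1, the scaffold of the Pes1, Bop1 and Wdr12 complex of 60S assembly, had the largest JQ1 rises of the members. It was at 10.1 and 9.81 in vehicle, 13.4 and 13.5 in ET-1, and 12.4 and 13.6 in PE, and with JQ1 at 17.4 and 17.4, 20.1 and 29.1, and 20.4 and 31.1. The differences were 0.78, 0.83 and 0.93 (SE 0.21), with adjusted p = 0.0239, 0.0159 and 0.00994. With agonist and JQ1, replicate 2 stood above replicate 1. The vehicle call was lost with each of its 4 libraries left out (0.76 to 0.80). The ET-1 call was lost without either ET-1 library (0.82 and 0.83) or ET-1+JQ1 replicate 2 (0.56), and the PE call without PE replicate 1 (0.86) or PE+JQ1 replicate 2 (0.63). The annotation places Scx inside Bop1 and Mroh1 across it, both on the opposite strand. Scx had means of 17.5, 13.98 and 11.8 with DMSO and 14.1, 7.10 and 5.20 with JQ1. Mroh1 had 9.48, 5.45 and 5.31 with DMSO and 10.4, 7.16 and 6.56 with JQ1. No label or header says whether the quantification used strand, so the value of Bop1 is uncertain. Of its complex partners, Pes1 had JQ1 differences of 0.13, 0.25 and 0.13, and Wdr12 of 0.00, 0.20 and 0.05, none called.

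**Figure D3:**
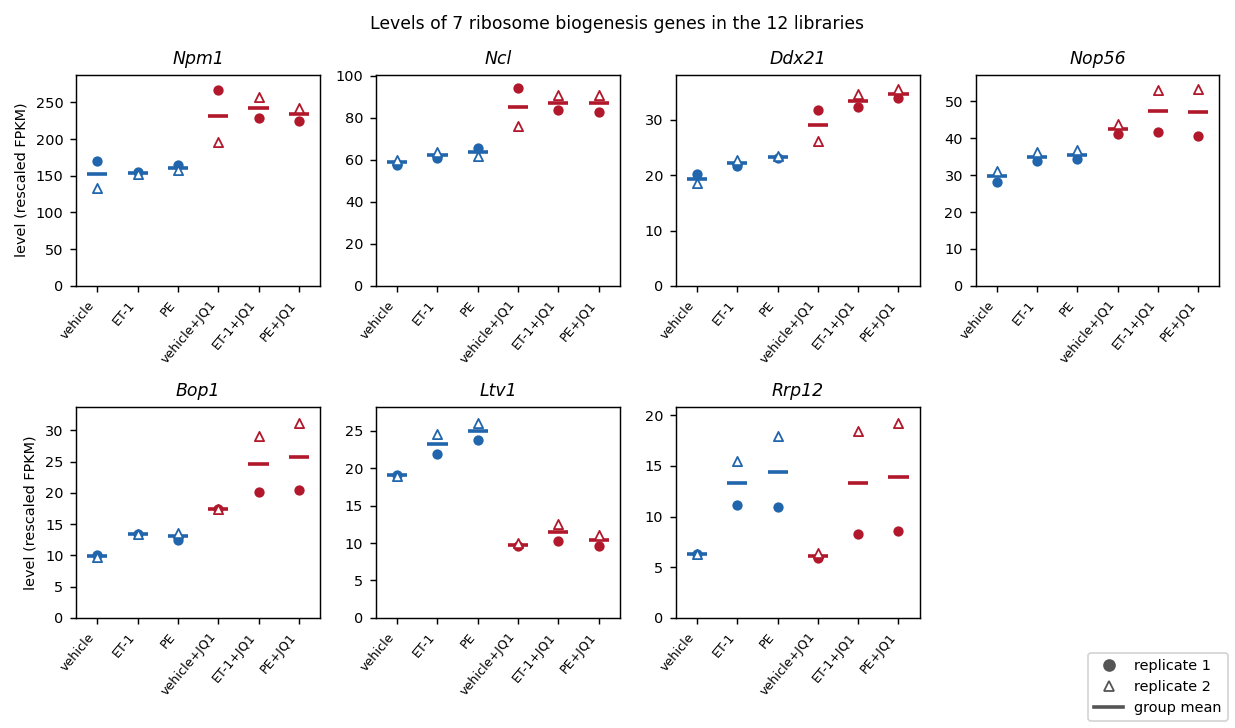
Level (rescaled FPKM, vertical axis from 0) of 7 genes in the 6 groups; circles are replicate 1, triangles replicate 2, bars group means, blue DMSO and red JQ1. Npm1, Ncl, Ddx21, Nop56 and Bop1 are higher in all JQ1 libraries, Ltv1 is lower in all (9.59 to 12.5 against 19.0 to 26.1), and Rrp12 follows the agonist and the replicate number.

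The agonists were also compared with vehicle under JQ1, in libraries that the comparisons without JQ1 do not use, to ask whether the agonist response persisted. The ET-1 and PE comparisons under JQ1 share the vehicle+JQ1 libraries, so their values are not independent. Libraries with the same replicate number also deviated together between the DMSO and JQ1 groups. With ET-1, 36 of 38 were positive and the median was 0.31, beside 48.1% of all genes and -0.01. No member was called (1.36% of all genes, either direction), 5 had an unadjusted p under 0.05 (beside 17.1% of all genes), and the block called Bysl, Polr1a, Rrs1 and Tsr1 higher (4 of 38, beside 4.92%). With PE, 38 of 38 were positive with a median of 0.26, beside 48.6% and -0.01. No member was called (0.718%), 8 had an unadjusted p under 0.05 (beside 16.3%), and the block called Bysl, Polr1a and Polr1e higher (3 of 38, beside 6.17%). None of these blocked calls held with every library left out in turn. Without rescaling, 31 and 30 were positive and the medians were 0.21 and 0.18.

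Both agonist libraries lay above both vehicle libraries under JQ1 in 24 of 38 (63.2%) with ET-1, beside 20.6% of all genes, and in 23 of 38 (60.5%) with PE, beside 21.6%. Across both JQ1 states, all 8 agonist libraries were above the vehicle libraries of the same JQ1 state in 18 of 38 (47.4%), beside 9.0% of all genes. These 18 were Polr1a, Polr1c and Polr1e, the snoRNP gene Nhp2, the helicase Ddx21, the 40S factors Bysl, Heatr1, Nat10, Pno1, Rrp12, Rrp9, Tsr1, Utp20 and Wdr43, and the 60S factors Bop1, Nop16, Rrs1 and Wdr12.

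The members with the smallest adjusted p for ET-1 under JQ1 were Tsr1 (0.61, SE 0.17, adjusted p = 0.123), Rrs1 (0.54, SE 0.18, 0.197) and Nhp2 (0.91, SE 0.32, 0.210), none called. For PE under JQ1 they were Polr1a (0.54, SE 0.19, 0.215), Ddx21 (0.26, SE 0.10, 0.249) and Nhp2 (0.84, SE 0.32, 0.251). Nhp2, a box H/ACA core protein, was at 15.5 and 14.7 in vehicle+JQ1, 20.6 and 40.4 in ET-1+JQ1, and 20.9 and 36.1 in PE+JQ1, with replicate 2 far above replicate 1. The agonist differences of Polr1c were 0.60 and 0.67 without JQ1 and 0.15 and 0.08 with it.

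**Figure D4:**
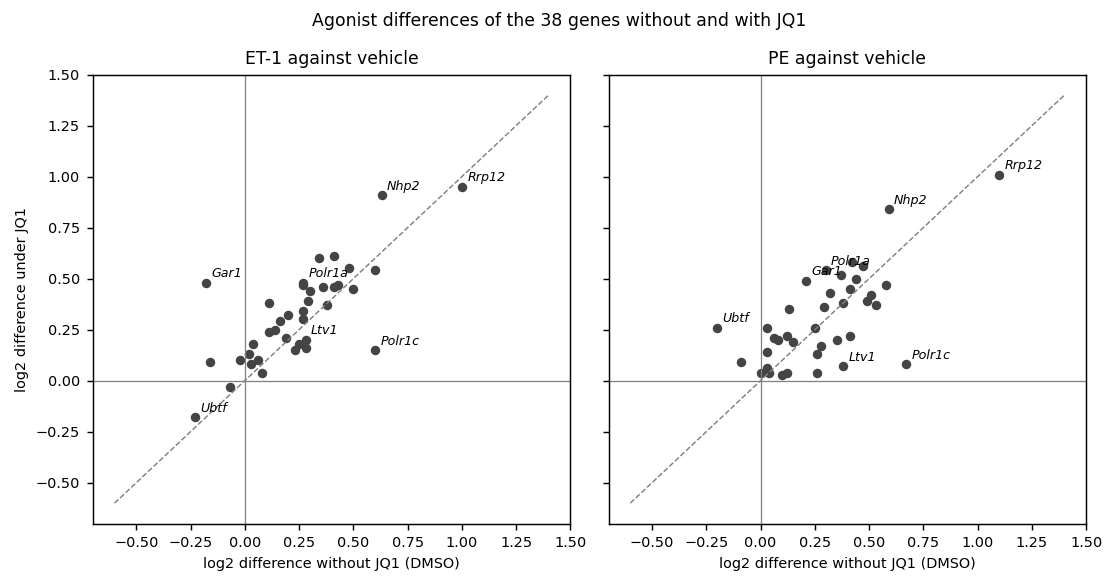
Agonist difference from vehicle on the log2(rescaled FPKM + 0.5) scale without JQ1 (horizontal) and under JQ1 (vertical) for the 38 genes, ET-1 left and PE right; the dashed line marks equal values. Rrp12 (1.00 and 0.95 with ET-1) lies near the line and Polr1c (0.67 and 0.08 with PE) far below it.

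A test of whether JQ1 acted differently with an agonist than without called no member. For ET-1, 0.0% of all genes were called without the block and 0.0363% with it, and the smallest p-values were those of Polr1c, Gar1 (0.66, SE 0.47) and Nop14 (0.25, SE 0.20), at adjusted p = 1.0. For PE, 0.0% and 0.0725% of all genes were called, and after Polr1c came Ubtf (0.46, SE 0.21, adjusted p = 0.983) and Ltv1 (-0.30, SE 0.16, adjusted p = 1.0). At an unadjusted p under 0.05 there were 0 members for ET-1 and 1 for PE, beside 4.47% and 5.2% of all genes.

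Differences within a replicate number showed how much the agonist and JQ1 libraries of replicate 2 added. For ET-1 under JQ1 the median of the 38 was 0.13 in replicate 1 and 0.51 in replicate 2, and for PE under JQ1 0.09 and 0.47. Without JQ1 the replicates were closer, 0.19 and 0.32 for ET-1 and 0.24 and 0.38 for PE. For JQ1 in ET-1 the medians had opposite signs, -0.03 and 0.24, and for JQ1 in PE -0.08 and 0.22. In vehicle they were 0.03 and 0.02. Without ET-1+JQ1 replicate 2 the median for ET-1 under JQ1 was 0.13 and that for JQ1 in ET-1 was -0.07. Without PE+JQ1 replicate 2 the median for PE under JQ1 was 0.11 and that for JQ1 in PE was -0.16.

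These libraries also stood apart in Myc, the transcription factor named above. Myc was at 13.8 in ET-1+JQ1 replicate 2 and 10.6 in PE+JQ1 replicate 2, and at 2.35 to 3.83 in the other 10 libraries. They had the lowest rescaling factors (0.873 and 0.914) and the fewest genes at an FPKM of at least 1 (12172 and 12224). ET-1+JQ1 replicate 2 had 16.9% of its bases in genes shorter than 400 nt, against 8.52 to 14.8% elsewhere. The part of these values in the members' levels was not tested.

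**Figure D5:**
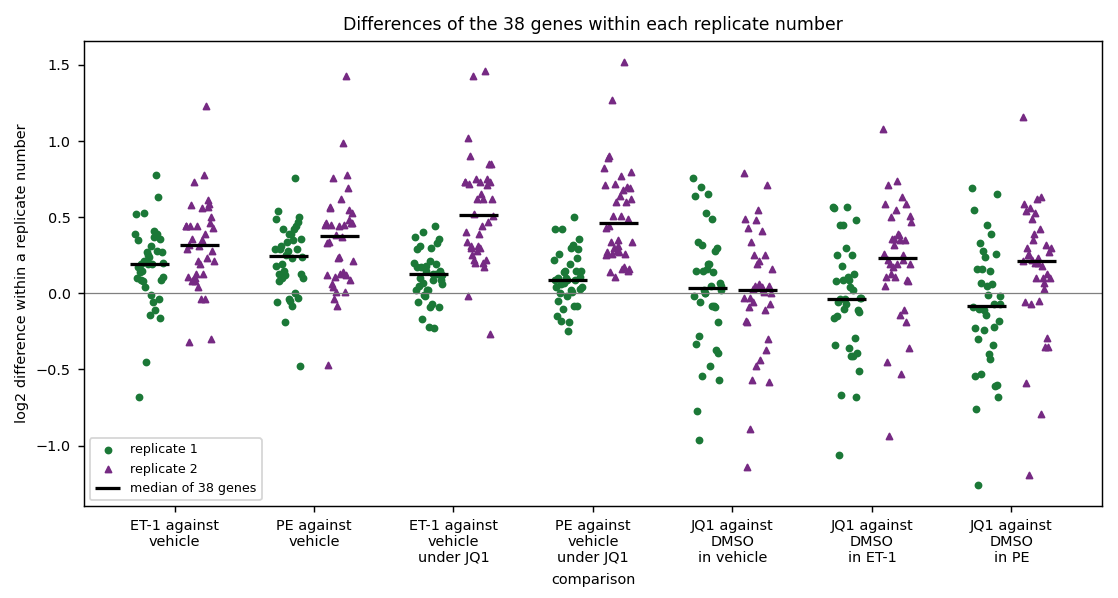
Difference of each of the 38 genes on the log2(rescaled FPKM + 0.5) scale within replicate 1 (circles) and within replicate 2 (triangles) for 7 comparisons; black bars are medians. The medians under JQ1 are 0.13 and 0.51 for ET-1 and 0.09 and 0.47 for PE.

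Other genes of the pathway, from lists that do not contain the 38, were counted in the same fits. With ET-1, 1 of 43 other small subunit and 40S factors was called, Wdr75 (0.56, adjusted p = 0.0474), a processome protein, beside 2.87% of all genes. None of 13 other RNA polymerase I genes, 50 other 60S factors, 12 other snoRNP and assembly genes or 16 exosome genes was called, with 3, 4, 0 and 2 at an unadjusted p under 0.05 (20.3% of all genes), and 3, 2, 0 and 1 called with the block. With ET-1 the block called 1226 of all 13793 genes higher and 1311 lower. With PE, Wdr75 (0.57, adjusted p = 0.0311), Utp18 (0.51, 0.0288) and the 60S maturation factor Sbds (0.45, 0.0378) were called higher, beside 2.89% of all genes. The block with PE called 4, 8, 9, 1 and 1 genes of these lists higher and 0, 1, 1, 0 and 1 lower, in the order RNA polymerase I, small subunit, 60S, snoRNP and exosome. It called 1627 of all 13793 genes higher with PE and 1687 lower. The medians of these lists were 0.04 to 0.18 with ET-1 and 0.05 to 0.20 with PE, below the 0.27 and 0.29 of the 38. The 38 and the lists were chosen with earlier results of these data known, so this order is not a test of the 38 against the pathway. The 81 genes of cytosolic ribosomal proteins had medians of 0.32 and 0.23, with 79 positive in each and none called in either fit. The replicates differed with PE. Over the 82 listed genes, tested or not, the median log2 level was 8.19 and 7.87 in vehicle (replicates 1 and 2). It was 8.38 and 8.42 in ET-1, and 8.13 and 8.36 in PE, so replicate 1 was not higher with PE.

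With JQ1 these lists also moved in opposite directions. Over all genes, 15.3%, 17.9% and 17.5% were called higher and 16.7%, 19.6% and 19.0% lower in vehicle, ET-1 and PE. In the vehicle, ET-1 and PE states, 3, 3 and 3 of 13 RNA polymerase I genes were called higher and 0, 0 and 2 lower. Of 43 small subunit factors, 6, 9 and 8 were higher and 1, 2 and 3 lower, led by Ddx49 (0.82, 0.90 and 0.87). Of 50 further 60S factors, 7, 9 and 10 were higher and 3, 3 and 3 lower, among them Rrp8, an rRNA methyltransferase (-1.13, -1.11 and -1.26), and Pak1ip1 (-0.94, -0.88 and -1.02). Of 12 snoRNP and assembly genes, 2, 3 and 4 were higher, led by Nop10 (0.65, 0.78 and 0.78) and Shq1 (0.76, 0.65 and 0.78), and 2, 2 and 2 lower, Ruvbl1 (-0.49, -0.84 and -0.80) and Tcof1 (-0.34, -0.33 and -0.28). Of the 81 ribosomal protein genes, 9, 10 and 10 were higher and none lower, with medians of 0.32, 0.34 and 0.25. With the block, the small subunit factors called were 11, 12 and 11 higher and 4, 3 and 3 lower, the 60S factors 11, 13 and 13 higher and 6, 6 and 7 lower, and the ribosomal protein genes 15, 17 and 12 higher. Over all genes the block called 24.9%, 27.1% and 26.7% higher and 27.9%, 29.8% and 29.7% lower.

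The RNA exosome, which trims and degrades ribosomal precursors, had 3, 3 and 3 of 16 genes called higher with JQ1 and 4, 5 and 5 lower. The shares of all genes were 15.3%, 17.9% and 17.5% higher and 16.7%, 19.6% and 19.0% lower. The exosome subunit gene Exosc5 was at 10.7 and 10.6 in vehicle, 8.26 and 7.52 in ET-1, and 6.85 and 5.67 in PE, and with JQ1 at 18.8 and 18.8, 16.6 and 20.7, and 16.4 and 21.6. It was lower with PE (-0.73, adjusted p = 0.0351) and higher with JQ1 in each state (0.79, 1.18 and 1.52, adjusted p = 0.00645, 0.000839 and 0.000331).

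Among 14 genes of the Myc network and nucleolar stress, 1 was called lower with ET-1 and 4 with PE, and with JQ1 3, 4 and 4 were called higher. Of all 13793 genes, 216 were called lower with ET-1 and 439 with PE, and 15.3%, 17.9% and 17.5% higher with JQ1. Mxi1, a Max partner that opposes Myc, moved most. It was at 11.6 and 14.9 in vehicle, 5.94 and 5.79 in ET-1, and 5.92 and 5.50 in PE, and with JQ1 at 30.8 and 31.3, 20.3 and 18.8, and 19.8 and 21.7. The agonist libraries were the lowest and the JQ1 libraries the highest. The differences were -1.10 and -1.14 for ET-1 and PE (adjusted p = 0.0116 and 0.00704) and 1.21, 1.66 and 1.77 for JQ1 (adjusted p = 0.00037, 8.18e-05 and 7.36e-05). Under JQ1 the ET-1 difference was -0.65 (adjusted p = 0.042). Mxd1, of the same family, rose with JQ1 by 0.80, 1.14 and 1.32 (adjusted p = 0.00388, 0.000601 and 0.000368). Myc itself was not called in any comparison without the block, with JQ1 differences of 0.26, 1.35 and 0.99 (SE 0.57). In the blocked limma fit it was called higher with JQ1 in ET-1 (adjusted p = 0.0234).

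Besides Polr1b, Ubtf and Rrn3, 14 members were not called in any comparison in either fit: Wdr74, Rrp1b, Nop2, Nop16, Pes1 and Wdr12 of 60S assembly, Rrp9, Heatr1, Wdr43, Nat10 and Nob1 of the small subunit, and the snoRNP proteins Fbl, Dkc1 and Nhp2. Their differences ran from -0.02 (Pes1) to 0.63 (Nhp2) with ET-1 and from 0.03 (Fbl) to 0.59 (Nhp2) with PE. Under JQ1 they ran from 0.10 to 0.91 with ET-1 and from 0.04 to 0.84 with PE, from Pes1 to Nhp2 in both. JQ1 differences ran from -0.55 to 0.13 in vehicle, from -0.27 to 0.27 in ET-1 and from -0.30 to 0.28 in PE, with Nhp2 lowest and Nob1, the nuclease that forms the end of 18S rRNA, highest each time.

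A further 5 members were called with JQ1 by the block only. Gar1 was lower in vehicle (-0.96), and Utp20 in vehicle (-0.58) and PE (-0.52). Gnl3 and Nop14 were higher in ET-1 (0.48 and 0.38), and Nolc1, a chaperone of snoRNPs, in PE (0.19). None of these calls held with every library left out in turn. Fbl overlaps Dyrk1b on the same strand, and Heatr1 contains another annotated gene on its own strand and Lgals8 on the opposite strand, so their values are uncertain. In all, 7 members (Taf1d, Nop56, Nop58, Ncl, Gnl3, Wdr43 and Tsr1) contain 31 annotated small RNA genes of 65 to 145 nt.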

How the data were processed

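The authors deposited, for each of the 12 libraries, a transcript table with mean coverage (signal) per base and FPKM, which is normalized for transcript length and library total, per the file headers. Per the submitters' processing notes, the tools were StringTie 1.3.4d, STAR 2.7.1a, DESeq2 1.24.0 and Trim Galore 0.6.0, with rat build rn6. No strand setting is given in the sources used here. The deposited FPKM hold no read counts, so the counting error is unknown.

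FPKM were summed over the transcripts of a gene and rescaled by median of ratios over 15551 genes. The 13793 genes with a rescaled FPKM of 1 or more in 2 libraries or more were tested with limma 3.58.1 (R 4.3.3; trend and robust) on log2(rescaled FPKM + 0.5) with 6 group means. Benjamini-Hochberg adjustment was made within each comparison, and an adjusted p under 0.05 was a call. The fit was run on simulated data with changes larger than most of those reported here, so that check does not cover small differences. Libraries with the same replicate number deviated together in all 15 pairs of groups (correlation of deviations across genes 0.16 to 0.67), a sign from the data, so a replicate block was fitted as well. Other pseudocounts, filters, scalings, values per gene and leaving out each library were tried.

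Per library, the text gives the 7 RNA polymerase I genes, the members called in a comparison, or, with none called, the 3 with the smallest adjusted p. Of other pathway lists it gives counts and at most the 2 largest called rises and falls, with Myc, the windows of Polr1c and Ddx21, Rrp12 and the members called with the block added after their values were seen. For 1 gene of these lists the result is not reported here. The members and lists were chosen with earlier results of these data known. Ttn and Pecam1 of the marker lists were not found by symbol. Promoter motifs come from RefSeq on GRCr8 and gene positions from the deposited tables on rn6.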

Additional observations from a re-analysis of the deposited data

How the results depend on the processing

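No member's called difference reversed under any alternative. With the replicate block, the members called rose from 0 to 5 for ET-1 against vehicle and from 1 to 9 for PE against vehicle. They rose from 6 to 11, 12 and 12 for JQ1 in vehicle, ET-1 and PE, and from 0 to 4 and 3 for ET-1 and PE under JQ1. The block changed no call for PE against ET-1 or for the differences between JQ1 effects. For PE against vehicle, 0 members were called without rescaling, with a pseudocount of 0.1, without a filter, with neither trend nor robust, with the most abundant transcript only, or with only the compared libraries. Fitting only the compared libraries left 3 members for JQ1 in ET-1 and 3 for JQ1 in PE. With 1 library left out, with or without the block (the blocked fits were added after seeing the data), the members called ranged from 0 to 8 for ET-1 against vehicle, 0 to 9 for PE against vehicle, 2 to 9 for JQ1 in vehicle, 2 to 11 in ET-1 and 4 to 9 in PE, 0 to 8 for ET-1 under JQ1 and 0 to 2 for PE under JQ1. The medians then ranged from 0.15 to 0.36 for ET-1 against vehicle, 0.19 to 0.44 for PE against vehicle, 0.13 to 0.56 for ET-1 under JQ1, 0.11 to 0.47 for PE under JQ1, -0.07 to 0.33 for JQ1 in ET-1, -0.16 to 0.28 for JQ1 in PE, and -0.12 to 0.28 and -0.17 to 0.24 for the differences between JQ1 effects. An arm left with 1 library was assumed to vary like the other groups. The causes were not tested. Limits are 2 libraries per group and an unknown read depth per gene.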
